A study of Sus scrofa with 8 samples.

Results

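Interferon-stimulated genes are the genes that a cell switches on when interferon, the antiviral alarm signal, binds its receptors. The 39 described here are those rows of the deposited gene table whose symbol is on a list of classical members of this programme, and all 39 listed symbols were found among the 23235 genes of the table. A mean of at least 1 FPKM over all libraries (a level corrected for gene length and library size) was required for testing. It was met by 36 of the 39 members and by 9821 genes in all. OASL, ISG20 and DTX3L fell under this limit and have levels only.

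The samples are longissimus dorsi, the long muscle of the back, from weaned Duroc x Landrace x Yorkshire piglets aged 28 days at the start, 6 of which were randomised to each group. In the melatonin group the hormone was given by gavage in sterile saline at 5 mg per kg body weight every day for 23 days. The control group received the same volume of saline (0 mg per kg) over the same days, and both groups shared a basal diet and 5 days of adaptation before treatment. Poly(A) RNA was sequenced in 4 melatonin libraries and 4 control libraries. The labels number the replicates without naming animals, so the p-values measure the spread between these libraries.

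Interferons of type I and type III act through JAK kinases on a complex that includes STAT2 and IRF9 and binds the promoters of these genes, while IRF1 is a main factor in the response to type II interferon. The products sense viral nucleic acid, block viral RNA and protein synthesis, tag proteins with ISG15, hold viruses at membranes, or limit the signal itself. Melatonin is the hormone of the pineal gland that signals darkness. In healthy muscle these genes are transcribed at a low resting level, in fibres as well as in the macrophages, vessels and other cells between them.

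Total counts ran from 53471667 to 60629098 fragments per library, and a tested member had between 79 and 7555 counts in a library. The markers of skeletal muscle fibres, which check the labelled tissue, summed to between 87300 and 111000 FPKM in melatonin libraries and between 104000 and 121000 FPKM in control libraries. The TMM factors (edgeR's correction for library composition, which FPKM lacks) were 1.18, 0.923, 1.19 and 0.866 in melatonin replicates 1 to 4, against 1.02, 0.851, 1.01 and 1.02 in control replicates 1 to 4. A member's FPKM in melatonin replicates 1 and 3 is therefore raised relative to its TMM-scaled level, and in melatonin replicate 4 and control replicate 2 it is lowered. Scaled levels are given beside FPKM below where the order of libraries over the whole list is described.

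A single library stood apart in nearly the whole programme. Melatonin replicate 4 had the lowest FPKM of all 8 libraries in 35 of the 36 tested members (97.2%), against 21.5% of all genes tested. On TMM-scaled CPM (counts scaled to library size) the count was again 35 of 36, against 10.5% of all genes. Summed over the 39 members, FPKM was 258, 292, 323 and 63.2 in melatonin replicates 1 to 4, against 245, 179, 220 and 211 in control replicates 1 to 4. IFI6 made the largest contribution to this sum, with 95.6 of the 258 FPKM in melatonin replicate 1. In FPKM the other 3 melatonin libraries were each above every control library and melatonin replicate 4 was below all of them. Relative to the control libraries' average, the TMM-scaled log2 CPM averaged over the 36 tested members stood at -0.05, 0.33, 0.26 and -1.28 for melatonin replicates 1 to 4, against 0.06, -0.15, 0.06 and 0.03 for control replicates 1 to 4. On that scale melatonin replicate 4 was again the lowest, while melatonin replicate 1 was below 3 of the 4 control libraries. PLSCR1 is the one tested member whose lowest value lay elsewhere, in control replicate 2. Group comparisons of the list, and of members given with every library's value and a test, follow with and without melatonin replicate 4.

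**Figure D1:**
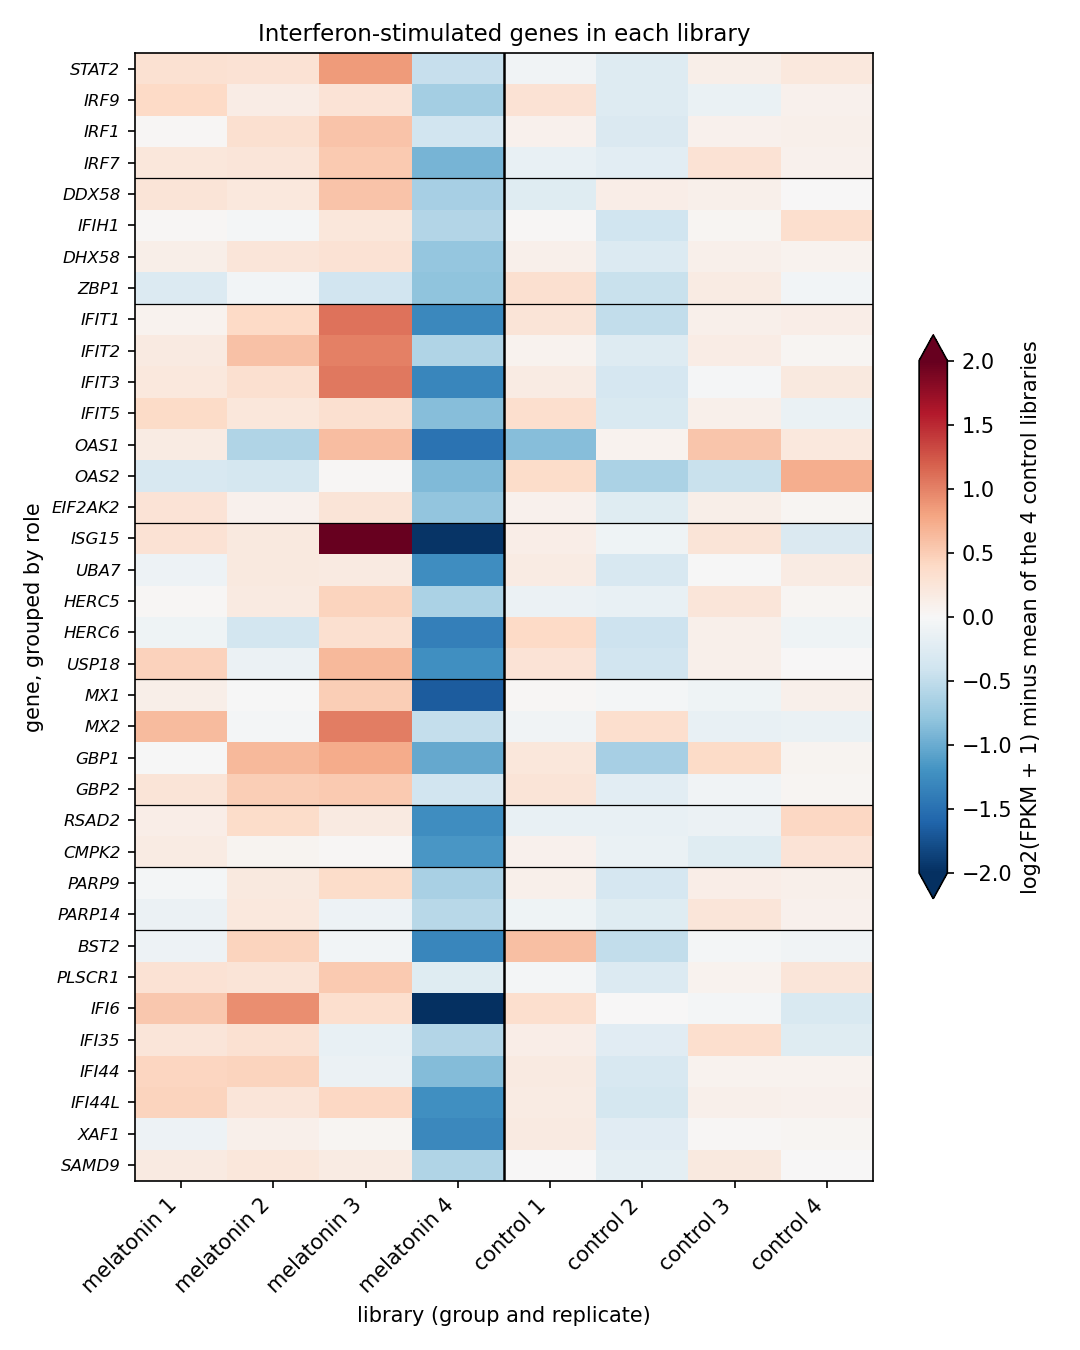
Level of the 36 tested members (rows, grouped by role) in each library (columns), as log2(FPKM + 1) minus the mean of the 4 control libraries. Red is higher and blue is lower, and colours end at 2 and -2, a limit that ISG15 and IFI6 pass. The column of melatonin replicate 4 is blue in every row, and ISG15 in melatonin replicate 3 is the deepest red.

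No interferon-stimulated gene passed the test of melatonin against control muscle. In edgeR's quasi-likelihood test with Benjamini-Hochberg adjustment over all 9821 genes, 0 of 36 members had an adjusted p under 0.05, with adjusted p from 0.465 to 0.995. The same test called 0.0% of all genes, and its smallest adjusted p was 0.44. Log2 fold changes of members, melatonin over control, ran from -0.59 to 0.58, and 26 of the 36 were within 0.3 of 0. The list held 13 members higher and 23 lower, with a median of -0.05, beside -0.00 over all genes tested. At an unadjusted p under 0.05, 0 of 36 members were higher, where 6.67% of all genes were. At the same limit 1 member, ZBP1, was lower (2.78%), where 3.84% of all genes were. DESeq2, another count test, called 65 genes and 0 of them members, with a smallest member adjusted p of 0.34, and limma on log2(FPKM + 1) called 0 genes.

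The groups overlapped in FPKM in all 36 tested members. Among all genes, 1.13% were higher in every melatonin library than in any control library, and 1.07% were lower.

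Leaving out melatonin replicate 4 turned the balance of the list without producing a call. Melatonin replicate 4 was the lowest melatonin library in all 36 tested members, so leaving it out could only raise their fold changes. The direction of the turn and of the change in the median was thus fixed in advance and is no separate result. Against the 4 control libraries, the remaining 3 melatonin libraries had 26 members higher and 10 lower, with a median log2 fold change of 0.18, beside -0.00 over all genes. edgeR then called 15 genes at an adjusted p under 0.05 (0.153%), and 0 of them were members. At an unadjusted p under 0.05, 4 of 36 members (ISG15, IFIT2, STAT2 and GBP2) were higher, which is 11.1%. The share of all genes higher at that limit was 11.1% as well. The share lower was 8.04% of all genes and 0 of 36 members.

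**Figure D2:**
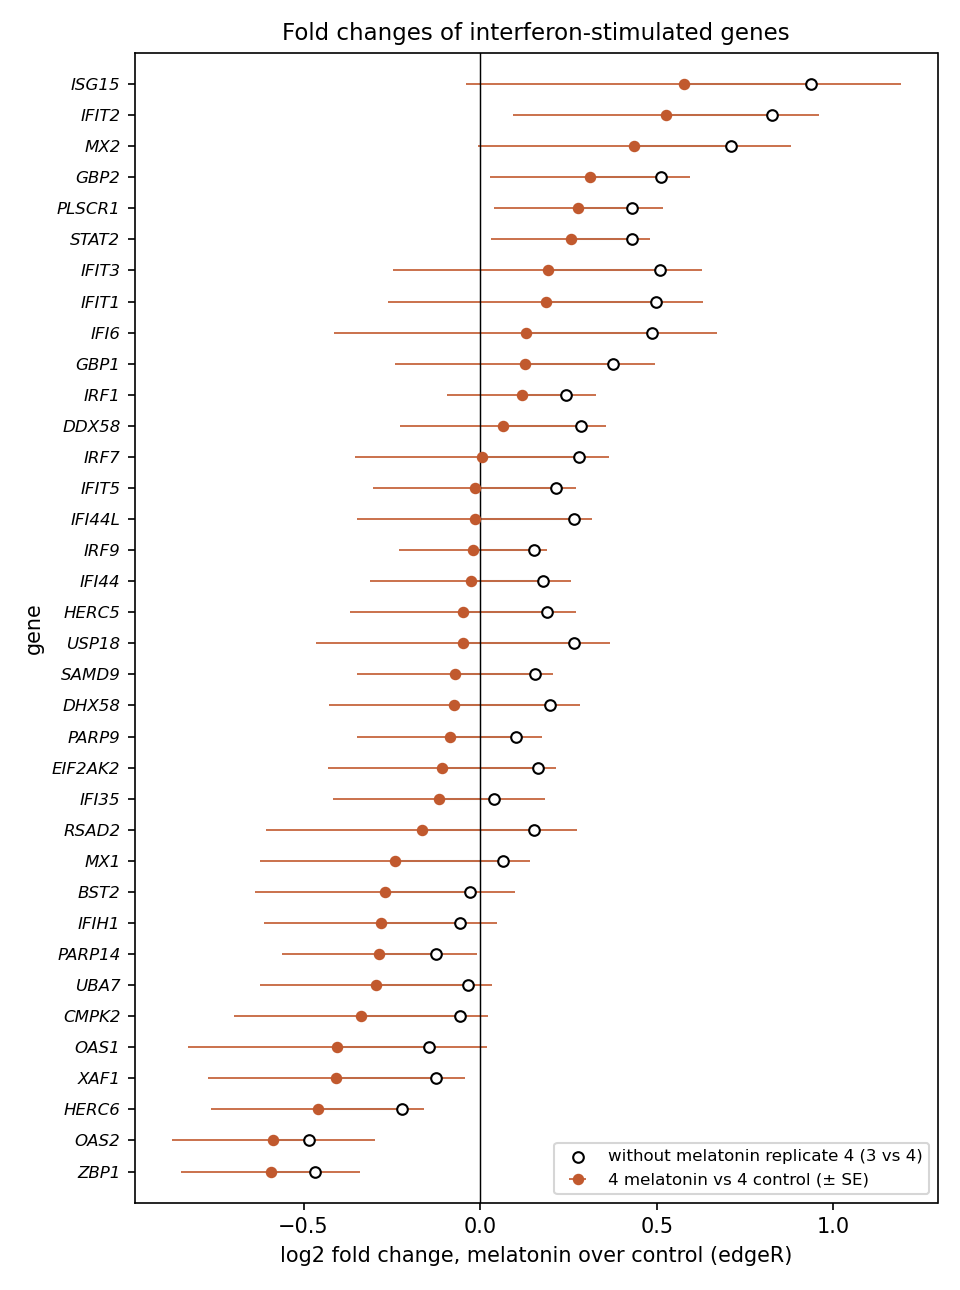
Log2 fold change, melatonin over control, of each tested member from edgeR, with all 8 libraries (filled points, bars are ± SE) and without melatonin replicate 4 (open circles, no error drawn). With all libraries the points run from ZBP1 at -0.59 to ISG15 at 0.58, and every open circle lies to the right of its filled point. That shift was fixed in advance, because melatonin replicate 4 was the lowest melatonin library in every tested member.

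The 4 transcription factors that drive the programme did not pass the test, and each was lowest in melatonin replicate 4. STAT2, a subunit of the complex that type I interferon activates, had 5.33, 5.23, 8.21 and 2.69 FPKM in melatonin replicates 1 to 4, against 3.85, 3.27, 4.55 and 4.91 FPKM in control replicates 1 to 4. In FPKM, melatonin replicates 1 to 3 lay above every control library and replicate 4 below every one. On TMM-scaled CPM, melatonin replicate 1 was below control replicate 4. Over the list, 8 of 36 tested members had melatonin replicates 1 to 3 above every control library in FPKM, against 11.5% of all genes tested. On TMM-scaled CPM, IFIT2, IFIT3, DDX58, DHX58, GBP2 and PLSCR1 among them also had melatonin replicate 1 below a control library. Of the 8, only IFI44L kept that order, so the count depends on the scaling. The share of all genes on the TMM scale was not computed. The log2 fold change of STAT2 was 0.26 ± 0.23 (SE), with an edgeR adjusted p of 0.676, and 0.43 ± 0.17 without melatonin replicate 4 (edgeR adjusted p = 0.216).

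IRF9, the DNA-binding subunit of the same complex, had 6.77, 5.57, 6.16 and 2.71 FPKM in melatonin libraries, against 6.24, 3.96, 4.43 and 5.31 FPKM in control libraries. The log2 fold change was -0.02 ± 0.21 (SE, edgeR adjusted p = 0.975), and 0.15 without melatonin replicate 4 (edgeR adjusted p = 0.612). IRF7, which amplifies interferon production, had 3.01, 3.06, 3.96 and 0.808 FPKM in melatonin libraries, against 2.09, 1.96, 3.2 and 2.64 FPKM in control libraries. IRF7 averaged 2.71 ± 1.34 FPKM in melatonin and 2.47 ± 0.566 FPKM in control libraries (SD, n = 4 each). Its log2 fold change was 0.01 ± 0.36 (SE, edgeR adjusted p = 0.995), and 0.28 without melatonin replicate 4 (edgeR adjusted p = 0.508).

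IRF1, the factor most tied to type II interferon, had 3.84, 4.93, 6.04 and 2.64 FPKM in melatonin libraries, against 4.05, 2.89, 4.05 and 4.11 FPKM in control libraries. With PLSCR1 (71.35%) it was the tested member least lowered in melatonin replicate 4 against the control mean, at 70%. Its log2 fold change was 0.12 ± 0.21 (SE, edgeR adjusted p = 0.85), and 0.24 without melatonin replicate 4 (edgeR adjusted p = 0.538). IRF1 overlaps RAD50 (3.77 FPKM on average) on the opposite strand, and STAT2 overlaps IL23A (0.02448 FPKM). The libraries mark strand, but whether counting used it is not given in the sources used here.

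Among the sensors of foreign nucleic acid, ZBP1 had the smallest p of all members. ZBP1, which binds left-handed double-stranded nucleic acid and can start cell death, had 2.35, 2.88, 2.09 and 1.32 FPKM in melatonin libraries, against 4.06, 1.97, 3.53 and 2.9 FPKM in control libraries. Control replicate 2 lay inside the melatonin range, so the groups overlapped. The log2 fold change was -0.59 ± 0.25 (SE), with an unadjusted p of 0.0425 and an edgeR adjusted p of 0.465. Without melatonin replicate 4 it was -0.47 ± 0.26 (edgeR adjusted p = 0.357).

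The 3 RNA helicases of the RIG-I family were low and did not separate the groups. DDX58, which encodes RIG-I, the sensor of viral RNA ends, ran from 1.07 to 3.85 FPKM in melatonin libraries and from 1.77 to 2.61 FPKM in control libraries. IFIH1, which encodes MDA5, the sensor of long double-stranded RNA, ran from 0.405 to 1.45 FPKM in melatonin libraries and from 0.597 to 1.67 FPKM in control libraries. DHX58, their regulator LGP2, ran from 0.471 to 2.05 FPKM in melatonin libraries and from 1.08 to 1.69 FPKM in control libraries. Melatonin replicate 4 held the lowest value in each of the 3, and edgeR adjusted p was 0.945, 0.757 and 0.949 in the order given.

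The IFIT genes, whose proteins bind viral RNA and block its translation, lie side by side on chromosome 14 between 101193419 and 101267067 (Sscrofa11.1), in the order IFIT2, IFIT3, IFIT1 and IFIT5. IFIT1 had 4.74, 6.26, 10.6 and 1.24 FPKM in melatonin libraries, against 5.55, 2.91, 4.88 and 5.04 FPKM in control libraries. IFIT2 had 1.53, 2.34, 3.48 and 0.48 FPKM in melatonin libraries, against 1.34, 0.875, 1.49 and 1.29 FPKM in control libraries. In IFIT1 and IFIT2 the highest value was in melatonin replicate 3 and the lowest in melatonin replicate 4, so that the melatonin libraries spanned the whole control range.

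IFIT1 had a log2 fold change of 0.19 ± 0.45 (SE, edgeR adjusted p = 0.893), and 0.50 without melatonin replicate 4 (edgeR adjusted p = 0.353). IFIT2 had 0.53 ± 0.43 with all libraries (edgeR adjusted p = 0.652) and 0.83 ± 0.28 without melatonin replicate 4 (edgeR adjusted p = 0.17). IFIT3, with 4.94, 5.4, 9.73 and 1.08 FPKM in melatonin libraries and 4.79, 3.07, 4.06 and 4.86 FPKM in control libraries, had the same order at both ends. IFIT5, with 4.96, 4.32, 4.67 and 1.53 FPKM in melatonin libraries and 4.74, 2.68, 3.89 and 3.14 FPKM in control libraries, was highest in melatonin replicate 1 in FPKM. On TMM-scaled CPM, IFIT5 in melatonin replicate 1 was below melatonin replicate 2 and control replicate 1. Members of one family share sequence, so reads of IFIT, OAS, MX and GBP genes may be split between relatives.

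The OAS enzymes make the messenger that activates RNase L, and they varied widely within the control group as well. OAS1 had 11.6, 6.41, 16.1 and 3.01 FPKM in melatonin libraries, against 5.22, 10.8, 15.5 and 12 FPKM in control libraries. OAS2, its neighbour on chromosome 14 (38827660 to 38859409 for the pair), had 8.11, 7.9, 10.6 and 5.14 FPKM in melatonin libraries, against 13.6, 6.34, 7.32 and 17.8 FPKM in control libraries. The 2 genes did not follow each other among the controls: control replicate 1 was the lowest of them in OAS1 and the second highest in OAS2.

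OAS1 averaged 9.28 ± 5.76 FPKM in melatonin and 10.9 ± 4.25 FPKM in control libraries (SD, n = 4 each), with a log2 fold change of -0.40 ± 0.42 (SE, edgeR adjusted p = 0.727), and -0.15 without melatonin replicate 4 (edgeR adjusted p = 0.859). OAS2 averaged 7.94 ± 2.24 FPKM in melatonin and 11.3 ± 5.42 FPKM in control libraries, with -0.59 ± 0.29 (SE, edgeR adjusted p = 0.501), and -0.48 without melatonin replicate 4 (edgeR adjusted p = 0.43). OASL, an OAS relative without that enzyme activity, had 0, 8, 16 and 0 counts in the 4 melatonin libraries and at most 0.0815 FPKM in any control library. ISG20, an RNA exonuclease, had 20, 12, 19 and 0 counts in melatonin libraries and at most 0.686 FPKM in a control library. At this depth neither gene allows a comparison. EIF2AK2, the kinase PKR that stops translation on double-stranded RNA, ran from 0.481 to 2.08 FPKM in melatonin libraries and from 1.16 to 1.76 FPKM in control libraries.

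**Figure D3:**
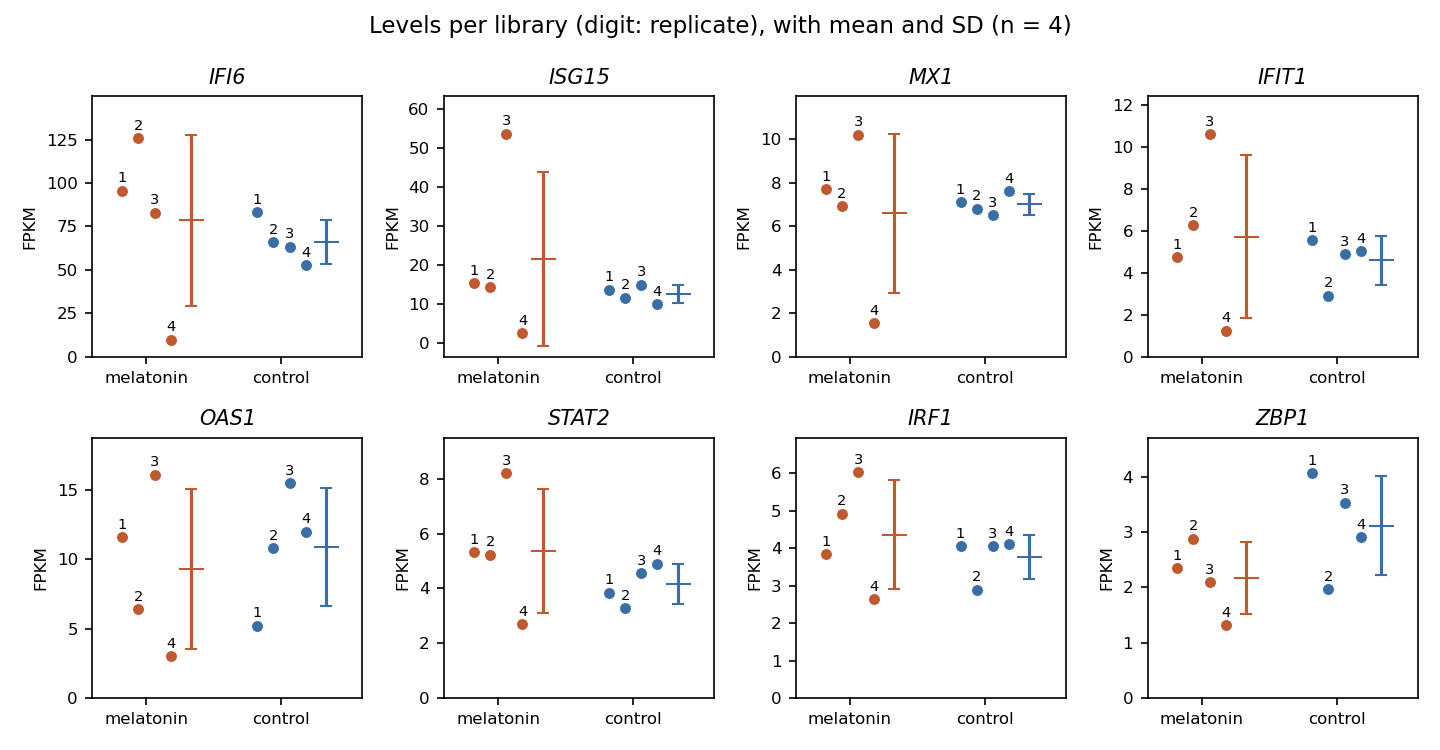
FPKM of 8 members in each library (points, with the replicate number as a digit), melatonin left of control in each panel. The long horizontal line is the mean and the bar is ± SD (n = 4 each), and for ISG15 in melatonin libraries the bar passes below 0 because the SD of 22.3 exceeds the mean of 21.5. Melatonin replicate 4 is the lowest point in all 8 panels, and melatonin replicate 3 the highest in ISG15, MX1, IFIT1, OAS1, STAT2 and IRF1. On TMM-scaled CPM, OAS1 was highest in control replicate 3 and IRF1 in melatonin replicate 2.

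ISG15, a ubiquitin-like protein that is joined to other proteins, showed the widest range among the members of the conjugation system. It had 15.4, 14.4, 53.8 and 2.44 FPKM in melatonin replicates 1 to 4, against 13.7, 11.6, 15 and 9.95 FPKM in control replicates 1 to 4. Melatonin replicates 1 and 2 were near the highest control library, replicate 3 was 4.28 times the control mean, and replicate 4 was at 19.4% of it. The log2 fold change was 0.58 ± 0.62 (SE, edgeR adjusted p = 0.733), 0.94 ± 0.40 without melatonin replicate 4 (edgeR adjusted p = 0.25), and -0.29 without melatonin replicate 3 (edgeR adjusted p = 0.912).

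None of the 4 members listed here for enzymes that handle ISG15 was more than 2-fold above the median of the other libraries in melatonin replicate 3, as ISG15 was. UBA7, the enzyme that activates ISG15, had 4.16, 5.32, 5.25 and 1.33 FPKM in melatonin libraries, against 5.23, 3.42, 4.48 and 5.23 FPKM in control libraries. USP18, the protease that removes ISG15 and also damps the type I receptor, had 4.51, 2.68, 5.28 and 0.707 FPKM in melatonin libraries, against 3.83, 2.07, 3.31 and 3.02 FPKM in control libraries. USP18 overlaps an unnamed gene of 0.0307 FPKM on the same strand. Both enzymes were lowest in melatonin replicate 4, at 28.9% and 23.1% of the control mean in the order given.

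HERC6, a ubiquitin ligase that in mouse attaches ISG15, had 6.65, 5.25, 9.07 and 2.14 FPKM in melatonin libraries, against 9.64, 5.06, 7.7 and 6.61 FPKM in control libraries. HERC6 had a log2 fold change of -0.46 ± 0.30 (SE, edgeR adjusted p = 0.579), and -0.22 without melatonin replicate 4 (edgeR adjusted p = 0.566). HERC5, the ligase that does this in human cells, lies beside it on chromosome 8 and ran from 0.582 to 2.34 FPKM in melatonin libraries and from 1.22 to 1.9 FPKM in control libraries.

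The GTPases, which trap viral particles or act on pathogen membranes, did not pass the test, with 3 of the 4 higher and 1 lower. MX1 had 7.7, 6.91, 10.2 and 1.53 FPKM in melatonin libraries, against 7.11, 6.8, 6.49 and 7.59 FPKM in control libraries. Its control libraries were close together, at 7 ± 0.471 FPKM (SD, n = 4), and melatonin replicate 4 reached 21.8% of that mean. The log2 fold change was -0.24 ± 0.38 (SE, edgeR adjusted p = 0.83) with all libraries, and 0.06 ± 0.14 without melatonin replicate 4 (edgeR adjusted p = 0.841). MX2, its neighbour on chromosome 13, had 2.28, 1.06, 3.32 and 0.515 FPKM in melatonin libraries, against 1.02, 1.68, 0.909 and 0.939 FPKM in control libraries.

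GBP1, a guanylate-binding protein, had 7.47, 12.4, 13.3 and 3.21 FPKM in melatonin libraries, against 9.04, 4.4, 10.1 and 7.89 FPKM in control libraries. The fold change of GBP1 on the log2 scale was 0.13 ± 0.37 (SE, edgeR adjusted p = 0.911), and 0.38 without melatonin replicate 4 (edgeR adjusted p = 0.498). GBP2, of the same family, had 1.91, 2.44, 2.5 and 0.875 FPKM in melatonin libraries, against 1.9, 1.11, 1.31 and 1.49 FPKM in control libraries. In FPKM, melatonin replicates 1 to 3 of GBP2 were above every control library. The nearest pair were 1.91 FPKM in melatonin replicate 1 and 1.9 FPKM in control replicate 1, and on TMM-scaled CPM this pair changed order. The log2 fold change of GBP2 was 0.31 ± 0.28 (SE, edgeR adjusted p = 0.69), and 0.51 without melatonin replicate 4 (edgeR adjusted p = 0.26).

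RSAD2, which encodes viperin, the enzyme that makes a chain-ending nucleotide, had 3.01, 3.71, 3.12 and 0.546 FPKM in melatonin libraries, against 2.27, 2.28, 2.37 and 3.87 FPKM in control libraries. For RSAD2 the log2 fold change was -0.17 ± 0.44 (SE, edgeR adjusted p = 0.905), and 0.15 without melatonin replicate 4 (edgeR adjusted p = 0.764). CMPK2, a nucleotide kinase that lies beside RSAD2 on chromosome 3, had 3.32, 3.02, 2.92 and 0.714 FPKM in melatonin libraries, against 3.11, 2.53, 2.27 and 3.67 FPKM in control libraries. In both neighbours control replicate 4 was the highest control library. Melatonin replicate 4 was the lowest of all 8 in both, as it was in 35 of 36 tested members. The order of control replicates 1 to 3 differed, at 2.27, 2.28 and 2.37 FPKM in RSAD2 and 3.11, 2.53 and 2.27 FPKM in CMPK2.

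The ADP-ribosyltransferase genes were low throughout. PARP9 and PARP14, which modify proteins with ADP-ribose, had log2 fold changes of -0.09 ± 0.26 and -0.28 ± 0.28 (SE, edgeR adjusted p = 0.915 and 0.708). DTX3L, the ubiquitin ligase partner of PARP9, lies between them on chromosome 13 and had 1.02, 1.36, 1.18 and 0.52 FPKM in melatonin libraries, against 0.811, 0.612, 1.05 and 0.778 FPKM in control libraries. PARP14 overlaps HSPBAP1 (1.488 FPKM) on the opposite strand.

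IFI6, a small membrane protein of mitochondria and the endoplasmic reticulum, was the most abundant member per length. It had 95.6, 126, 83 and 9.84 FPKM in melatonin libraries, against 83.1, 66, 63.3 and 52.6 FPKM in control libraries. Melatonin replicate 4 was at 14.8% of the control mean, the lowest share of all tested members. The group means were 78.6 ± 49.3 FPKM in melatonin and 66.3 ± 12.7 FPKM in control libraries (SD, n = 4 each), with a log2 fold change of 0.13 ± 0.54 (SE, edgeR adjusted p = 0.939). Without melatonin replicate 4 it was 0.49 ± 0.25 (edgeR adjusted p = 0.336).

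BST2, or tetherin, which holds budding virus at the cell surface, had 8.42, 12.8, 8.73 and 3.1 FPKM in melatonin libraries, against 14.3, 6.15, 8.88 and 8.67 FPKM in control libraries. BST2 overlaps CCDC194 (0.196 FPKM) on the same strand. For BST2 the log2 fold change was -0.27 ± 0.37 (SE, edgeR adjusted p = 0.795), and -0.03 without melatonin replicate 4 (edgeR adjusted p = 0.971). PLSCR1, a membrane protein that restricts virus entry, had 1.71, 1.64, 2.17 and 0.878 FPKM in melatonin libraries, against 1.15, 0.83, 1.32 and 1.62 FPKM in control libraries. In FPKM, melatonin replicates 1 to 3 of PLSCR1 were all above every control library. On TMM-scaled CPM, melatonin replicate 1 was below control replicate 4. The log2 fold change of PLSCR1 was 0.28 ± 0.24 (SE, edgeR adjusted p = 0.67), and 0.43 without melatonin replicate 4 (edgeR adjusted p = 0.312).

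XAF1, which promotes cell death, had 3.04, 3.61, 3.43 and 0.761 FPKM in melatonin libraries, against 3.86, 2.69, 3.37 and 3.42 FPKM in control libraries, with a log2 fold change of -0.41 ± 0.36 (SE, edgeR adjusted p = 0.682), and -0.13 without melatonin replicate 4 (edgeR adjusted p = 0.771). IFI44 and IFI44L, adjacent on chromosome 6 and named only for their response to interferon, ran from 2.86 to 8.58 and from 1.59 to 7.27 FPKM in melatonin libraries, against 4.64 to 7.01 and 3.73 to 5.82 FPKM in control libraries. IFI35, a partner of other interferon-induced proteins, ran from 1.52 to 3.66 FPKM in melatonin libraries and from 2.2 to 3.78 FPKM in control libraries. SAMD9, an inhibitor of translation, ran from 0.602 to 1.85 FPKM in melatonin libraries and from 1.11 to 1.77 FPKM in control libraries.

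Set in order of mean level per length, IFI6 (72.4 FPKM), ISG15 (17 FPKM) and OAS1 (10.1 FPKM) were the 3 tested members at 10 FPKM or more. OAS2 at 9.61 FPKM, BST2 at 8.88 FPKM and GBP1 at 8.49 FPKM followed, and the 4 genes from OAS1 to GBP1 overlapped in their ranges over libraries. Below them, 13 tested members had a mean under 2 FPKM. The median over tested members was 3.1 FPKM, beside 4.2 FPKM over all genes tested.

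The low state of melatonin replicate 4 varied in depth between members. Against the median of the other 7 libraries on the TMM-scaled CPM scale, the log2 ratio was -2.77 for IFI6, -2.26 for ISG15, -2.07 for MX1 and -2.06 for RSAD2. At the other end it was -0.40 for IRF1 and -0.53 for OAS2 and PLSCR1. The median over tested members was -1.25, beside 0.00 over all genes tested. The 4 transcription factors ran from -1.45 for IRF7 through -0.74 for IRF9 and -0.55 for STAT2 to -0.40 for IRF1.

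In melatonin replicate 4, 24 of 36 members (66.7%) were more than 2-fold below that median, against 218 of all 9821 genes (2.22%). Members made up 11% of those 218 genes, 7 of the lowest 50 and 1 of the lowest 20. In the other 7 libraries the count of members more than 2-fold below the median of the rest was 0, except 1 in control replicate 1, where 1.15% of all genes were. Members more than 2-fold above it were ISG15, MX2 and IFIT2 in melatonin replicate 3 (3 of 36, against 3.77% of all genes) and OAS2 in control replicate 4 (1 of 36, against 1.97% of all genes).

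Melatonin replicate 3 was the highest of the 8 libraries in FPKM in 18 of 36 members (50.0%), against 27.9% of all genes tested. On TMM-scaled CPM it was highest in 12 members and melatonin replicate 2 in 15, so which of them leads depends on the scaling. Of all 9821 genes, 1140 were highest in melatonin replicate 3 and 1295 in melatonin replicate 2 on that scale. Control replicate 2 was the lowest control library in FPKM in 27 of 36 members, and in 5341 of all 9821 genes.

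The spread within the melatonin group was wide with replicate 4 and narrow without it. The median SD of log2(FPKM + 1) over tested members was 0.62 in melatonin and 0.23 in control libraries, beside 0.27 and 0.21 over all genes. Without replicate 4 it was 0.21 in the melatonin group. The SD was larger in melatonin than in control libraries in 34 of 36 members (94.4%), against 65.4% of all genes, and without replicate 4 in 15 of 36 (41.7%), against 56.4% of all genes. Replicate 4 was the lowest melatonin library in all 36 members, against 5113 of all 9821 genes. Leaving it out therefore favours a smaller SD in members, and that SD is taken over fewer libraries than the control SD.

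**Figure D4:**
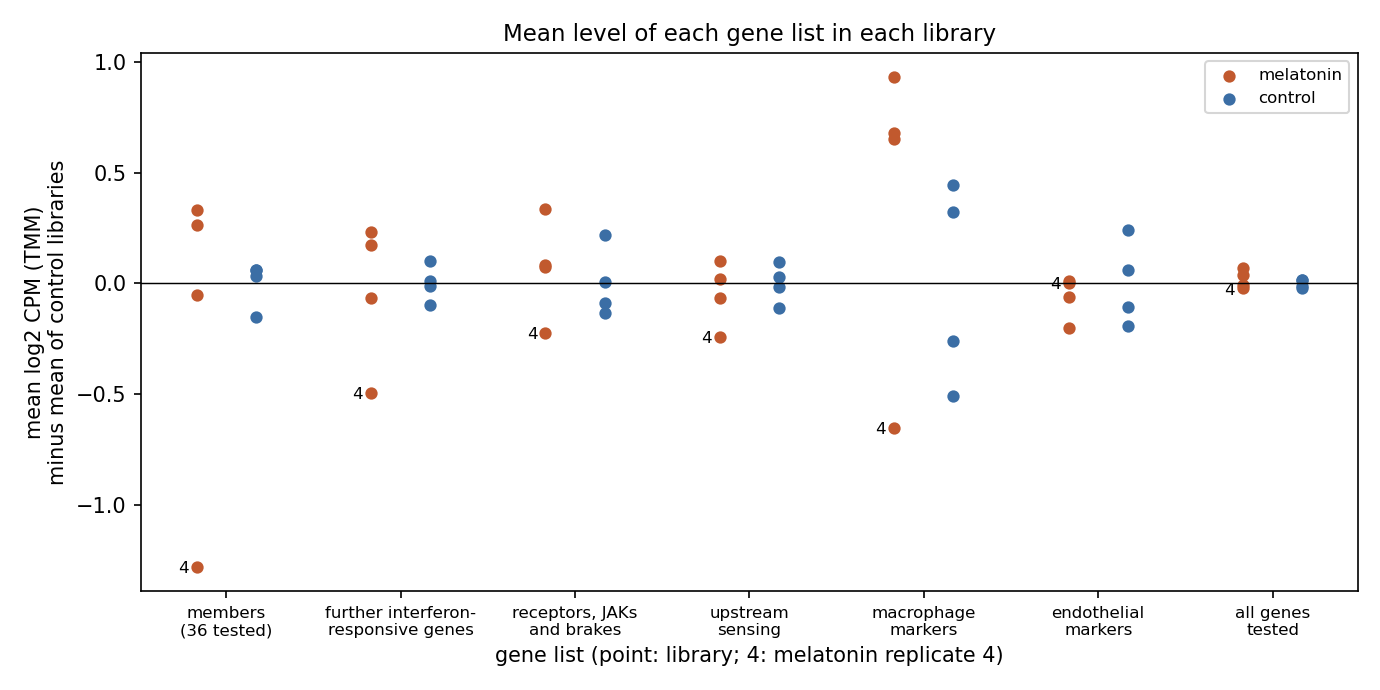
Mean TMM-scaled log2 CPM of each gene list in each library (one point per library), minus the mean of the 4 control libraries, with melatonin left of control and melatonin replicate 4 marked by its digit. The members' point for melatonin replicate 4 lies at -1.28, the further interferon-responsive genes' at -0.49 and that of all genes tested at -0.02.

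The genes upstream of the members and further interferon-responsive genes were described as lists, chosen with earlier results of these data known. Of the 13 interferon ligands listed, 5 were found and 0 reached 1 FPKM. IFNA1 had 0.597, 0.369, 0.259 and 0.09 FPKM in melatonin libraries, against 0.182, 0.076, 0.136 and 0.115 FPKM in control libraries. Interferon genes of this family have no introns and resemble each other, and levels this low were not compared.

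Of 16 receptors, JAK kinases and signal brakes found, 13 were tested, 0 were called, and 8 were higher and 5 lower, with a median log2 fold change of 0.12. STAT3, a factor shared with cytokines such as interleukin 6, averaged 13.7 ± 5.29 FPKM in melatonin and 9.39 ± 0.755 FPKM in control libraries (SD, n = 4 each; edgeR adjusted p = 0.461). PIAS1, an inhibitor of STAT signalling, averaged 2.81 ± 0.927 FPKM in melatonin and 1.9 ± 0.168 FPKM in control libraries (edgeR adjusted p = 0.473).

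Of 23 nucleic acid sensing genes listed upstream of interferon, 21 were found and 13 tested. None was called by edgeR, where 6 were higher and 7 lower with a median log2 fold change of -0.00, and 1 had an unadjusted p under 0.05. NLRX1, a mitochondrial protein that restrains this signalling, had 2.25, 1.46, 2.22 and 2.16 FPKM in melatonin libraries, against 3.04, 2.66, 3.5 and 3.3 FPKM in control libraries. These groups did not overlap, and the log2 fold change was -0.71 ± 0.16 (SE) with an edgeR adjusted p of 0.44. STING1, the adaptor for cytosolic DNA, averaged 1.73 ± 0.291 FPKM in melatonin and 2.25 ± 0.279 FPKM in control libraries (SD, n = 4 each; edgeR adjusted p = 0.478).

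Of 68 further interferon-responsive genes listed, 49 were found and 36 tested, with 0 called, 18 higher, 18 lower and a median log2 fold change of -0.01. CXCL10, a chemokine that draws T cells, had 3.37, 7.49, 9.27 and 1.6 FPKM in melatonin libraries, against 1.47, 2.58, 2.14 and 1.97 FPKM in control libraries. Its log2 fold change was 1.27 ± 0.47 (SE, edgeR adjusted p = 0.448), above that of every member, and 1.55 without melatonin replicate 4 (edgeR adjusted p = 0.094). TDRD7, an interferon-induced inhibitor of autophagy, averaged 6.47 ± 0.201 FPKM in melatonin and 9.4 ± 3.37 FPKM in control libraries (SD, n = 4 each; edgeR adjusted p = 0.453). Melatonin replicate 4 had the lowest FPKM in 23 of these 36 genes (63.9%), against 21.5% of all genes tested. On TMM-scaled CPM it was lowest in 21 of the 36 (58.3%), against 10.5% of all genes. In that library 5 of the 36 (EPSTI1, LGALS3BP, CXCL9, PML and PARP12) were more than 2-fold below the median of the other libraries. That is 13.9%, against 2.22% of all genes.

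In whole muscle, fewer cells of a type and less RNA per cell cannot be told apart. Markers of other cell types were also low in melatonin replicate 4, and adipocyte markers were low in several control libraries too. The 13 macrophage markers found summed to 69.1, 59.9, 90.9 and 21.7 FPKM in melatonin libraries, against 53.6, 29.6, 25.9 and 58.5 FPKM in control libraries. The 5 adipocyte markers summed to 219, 73.1, 193 and 13.7 FPKM in melatonin libraries, against 40.9, 21.8, 126 and 29.1 FPKM in control libraries. Both sums were lowest in melatonin replicate 4. There, 4 of 8 tested macrophage markers and 4 of 4 tested adipocyte markers were more than 2-fold below the median of the other libraries, against 2.22% of all genes. Only 2 of the 4 adipocyte markers, CIDEC and FABP4, had their lowest FPKM there. ADIPOQ had 1.03 FPKM there, against 0.99, 1.57 and 2.27 FPKM in control replicates 1, 2 and 4. PLIN1 had 0.343 FPKM there, against 0.326, 0.224 and 0.67 FPKM in the same control libraries.

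Control replicate 3, with 25.9 FPKM of macrophage markers, had a member sum of 220 FPKM, and control replicate 2, with 21.8 FPKM of adipocyte markers, had one of 179 FPKM. Melatonin replicate 4, with 21.7 and 13.7 FPKM of these markers, had a member sum of 63.2 FPKM. The part of macrophage and adipocyte content in the low members was not tested. No marker gene of these lists was at 0 in all libraries, and LEP among the adipocyte markers had a mean under 0.1 FPKM.

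In FPKM, sums for other cell types were lowest in melatonin replicate 4 for some lists and not for others. The 9 endothelial markers summed to 74, 67, 91.3 and 66.4 FPKM in melatonin libraries, against 94.6, 58.9, 83.4 and 67.9 FPKM in control libraries. The 16 T cell and NK cell marker genes summed to between 4.23 and 7 FPKM in melatonin libraries and between 3.22 and 7.14 FPKM in control libraries, with CD8B, KLRB1 and 1 of 2 genes named GZMA under a mean of 0.1 FPKM. The 6 B and plasma cell markers summed to 1.79, 1.49, 3.75 and 1.39 FPKM in melatonin libraries, against 2.42, 1.75, 2.62 and 1.98 FPKM in control libraries, with 3 of the 6 under that mean, MS4A1 and PAX5 among them. The 4 erythroid markers summed to 38.5, 40.8, 100 and 38 FPKM in melatonin libraries, against 122, 41.9, 165 and 41.4 FPKM in control libraries. In FPKM the B and plasma cell sum and the erythroid sum were also lowest in melatonin replicate 4, close to the next library. The endothelial and the T and NK cell sums were lowest in control replicate 2. On TMM-scaled log2 CPM relative to controls, the 2 tested erythroid markers averaged -1.60 in melatonin replicate 1, their lowest library, and -0.80 in melatonin replicate 4. The endothelial markers averaged -0.20 in melatonin replicate 1, -0.19 in control replicate 2 and 0.003 in melatonin replicate 4. The 1 tested B and plasma cell marker was lowest in melatonin replicate 2 on both scales. The 3 plasmacytoid dendritic cell markers, of a cell type known for making interferon, summed to between 3.61 and 4.67 FPKM in melatonin libraries and between 2.89 and 4.82 FPKM in control libraries.

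No macrophage marker passed the test of melatonin against control. Of 8 tested, 7 had a log2 fold change above 0, with a median of 0.44, and 0 were at an unadjusted p under 0.05. Without melatonin replicate 4, 4 of 8 were higher at that limit, where 11.1% of all genes were, and 0 were called. That library was the lowest melatonin library in all 8, so leaving it out could only raise their fold changes. CD163, a scavenger receptor of resident macrophages, averaged 3.32 ± 2.14 FPKM in melatonin and 1.31 ± 0.833 FPKM in control libraries (SD, n = 4 each), with a log2 fold change of 1.21 ± 0.58 (SE, edgeR adjusted p = 0.491). Connective tissue markers summed to 8560, 675, 2570 and 681 FPKM in melatonin libraries, against 965, 492, 573 and 609 FPKM in control libraries. Their part in the members' values was not tested.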

How the data were processed

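Longissimus dorsi RNA was measured in 4 melatonin and 4 control libraries. Each library has a column of counts and a column of FPKM in the deposited gene table. The authors' counts are whole numbers without scaling, and their FPKM divides the same counts by length and library size (ratios deviated by at most 0.234% over 3452 genes). The submitters' processing notes list the genome build Sscrofa11.1 and the tools FastQC, StringTie and DESeq2. The aligner is not given in the sources used here. No value column was left unmapped (0), and no library pair was a duplicate (smallest chi-square per degree of freedom 53.2).

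Genes with a mean FPKM of at least 1 were tested on counts in edgeR 4.0.16 (R 4.3.3): TMM, quasi-likelihood F test (legacy), no covariate, Benjamini-Hochberg adjustment over 9821 genes, threshold 0.05. The common biological coefficient of variation was 28%. SE is the log2 fold change divided by the root of F. Alternatives were DESeq2 1.42.0, limma 3.58.1 on log2(FPKM + 1) or log2(FPKM + 0.1), other filters and scalings, a bias-adjusted fit, a replicate block and libraries left out. DESeq2 and limma without melatonin replicate 4 were added after seeing the data.

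Members and lists were chosen with earlier results of these data known. Members given with every library's value and a test are the 8 with the smallest p, the 8 with the highest mean, and a fixed set of 8, together 19 genes. Promoter sequences were not analysed here, and values of some listed genes are not reported here.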

Additional observations from a re-analysis of the deposited data

Results flagged for a closer look

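Values far from the rest of their group of 4, by a gap test that flags about 1 group in 20 by chance, were found in 7 members. In melatonin libraries 2 of 37 members were flagged, against 5.03% of all genes tested, and in control libraries 5 of 37, against 6.74%. The 37 are more than the 36 tested members, so they include a member under the limit of 1 FPKM, which the genes tested do not. In melatonin replicate 4, CMPK2 was low at 0.714 FPKM and SAMD9 was low at 0.602 FPKM.

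In control replicate 2, DHX58 was low at 1.08 FPKM, IRF1 at 2.89 FPKM and PARP9 at 1.7 FPKM, while MX2 was high at 1.68 FPKM. The mean of the members in that library, as log2(FPKM + 1) minus the control mean, was flagged too, at -0.252. Over all genes tested the same measure was -0.154 there, and on TMM-scaled CPM the members' mean there was -0.15. In control replicate 4, RSAD2 was high at 3.87 FPKM. The mean of the members in melatonin replicate 4, -0.966 as log2(FPKM + 1) minus the control mean, was not among the flagged values.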

How the results depend on the processing

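Of the 19 members with full values, 0 passed the adjusted threshold in any of 20 alternative settings (smallest adjusted p 0.075, IFIT2, DESeq2 without melatonin replicate 4), and 7 kept their sign in all. The number of genes called was 65 with DESeq2, from 0 to 15 with 1 library left out (15 without melatonin replicate 4), and 765 with DESeq2 without melatonin replicate 4. The number of members at an unadjusted p under 0.05, 1 with all libraries, was 2 with no filter, 0 with a filter at a mean of 5 FPKM, 0 with limma at either pseudocount, 0 with the replicate block and from 0 to 4 with 1 library left out (4 without melatonin replicate 4). It was 2 without melatonin replicates 1 and 3, and without melatonin replicate 4 it was 4 in DESeq2 and 5 in limma.

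Signs of log2 fold changes turned as follows, and the causes were not tested. With 1 library left out, values ran from -0.2941 to 0.9353 for ISG15, from -0.4514 to 0.065 for MX1, from -0.1896 to 0.4981 for IFIT1 and from -0.5025 to 0.1516 for RSAD2. They ran from -0.3308 to 0.4859 for IFI6, from -0.0193 to 0.2422 for IRF1, from -0.1525 to 0.28 for IRF7, from -0.1175 to 0.1511 for IRF9 and from -0.1613 to 0.3773 for GBP1. The high end was without melatonin replicate 4 in each of these. Without melatonin replicates 1 and 3, ISG15 was -0.4934, IFIT1 -0.1891 and IRF7 -0.2556. DESeq2 without melatonin replicate 4 gave 0.0613 for MX1 and 0.1475 for RSAD2 and IRF9. limma on log2(FPKM + 1) without it gave 0.1984 for MX1, 0.0632 for OAS1, 0.2303 for RSAD2, 0.2716 for IRF9, 0.014 for XAF1 and 0.0995 for BST2, where the median of all genes was 0.124. With all libraries, limma gave -0.1992 and -0.2204 for IFI6 and 0.0349 and 0.0297 for IRF9 at pseudocounts of 1 and 0.1, and -0.0412 for IRF7 at 0.1. IRF9 was 0.0284 with the filter at 5 FPKM, and IRF7 was -0.0138 with no filter. The replicate block gave -0.0512 for IFIT1, -0.2523 for IFI6, -0.1107 for IRF7 and -0.0121 for GBP1.

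Same-numbered melatonin and control libraries deviated together with correlations of 0.181, 0.0691, 0.169 and -0.0266, and 2 of 4 pairs correlated best with their own number, so the numbers were not taken to pair the samples. With the replicate block edgeR called 0 genes and the median of the members was -0.15. OASL, ISG20 and DTX3L were under the filter of 1 FPKM and have no fold change here.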
